A study of Homo sapiens with 30 samples.

Results

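ANO1, KCNN3 and TSPO are 3 genes whose transcript level switched between the FOXM1 knockout and vector groups of the OPM2 myeloma line, and ANO6, KCNN4, VDAC1, VDAC2 and VDAC3 are relatives or partners of theirs. The 8 genes were taken by symbol from the expression tables of 2 myeloma lines. All 8 were among the 16407 genes of the OPM2 table, and 7 were among the 17286 genes used for the second line, Delta47, where ANO1 was not analysed. A gene was tested where it reached a value of 1 in at least 3 libraries of a line, which 7 of the 8 did in OPM2 and 5 of 7 did in Delta47. ANO1, KCNN3 and TSPO were chosen by their OPM2 values in the knockout and vector groups, so for that line their differences are given as a description and without a test.

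OPM2 and Delta47 are human multiple myeloma cell lines, grown from malignant plasma cells, and the study edited FOXM1, the gene of a forkhead transcription factor that drives late cell cycle genes. Each line had an unedited group (WT) and 2 knockout groups (KO1 and KO2), made with Cas9 protein and a guide against the second exon of FOXM1 and grown out as separate clones, so each knockout group stands for 1 clone. OPM2 KO1 was also carried with an empty vector (KO1EV) or with a lentiviral vector for the FOXM1c isoform (KO1R), and Delta47 KO2 with the FOXM1c vector (KO2R). The design text describes sorting on GFP for cells given the FOXM1c vector. KO1EV and KO1R therefore share the knockout of KO1, and KO2R shares that of Delta47 KO2. The Delta47 columns used for KO2R carry a name with an R but without the clone's number and were matched to KO2R as the 1 labelled group with an R, on which each KO2R result rests. The empty-vector group of Delta47 was not analysed here, so for that line the FOXM1c insert cannot be told apart from the vector and the sort. In OPM2 the empty vector is the control, and the part of the sort in KO1R against KO1EV was not tested. Every group had 3 libraries.

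ANO1 (TMEM16A) is a calcium-activated chloride channel of the plasma membrane, best known from secretory epithelia and smooth muscle, and ANO6 (TMEM16F) is a member of the same anoctamin family that works as a calcium-activated phospholipid scramblase and ion channel. KCNN3 (SK3) and KCNN4 (KCa3.1) are potassium channels that open when cytosolic calcium rises, KCNN3 known from excitable cells and KCNN4 from lymphocytes and red cells. TSPO is a cholesterol-binding protein of the outer mitochondrial membrane, abundant in steroid-producing and myeloid cells. VDAC1, VDAC2 and VDAC3 form the pores of that membrane through which metabolites and ions pass, and VDAC1 is a known partner of TSPO.

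The FOXM1 transcript remained measurable in every knockout group. In OPM2 it was 175 to 177 FPKM (fragments scaled to transcript length and library size) in WT, 91.2 to 93.3 in KO1, 105 to 109 in KO1EV, 57.1 to 69.7 in KO2 and 263 to 292 in KO1R. In Delta47 the authors' expression value, whose unit is not named, was 87.1 to 90.9 in WT, 45.4 to 49.8 over both clones and 94.4 to 102 in KO2R. The values of a library summed to 510776 to 566016 in OPM2 and to 534185 to 633778 in Delta47, which are not read counts, so the depth is unknown. All 8 plasma cell and myeloma markers passed the filter in both lines, with a summed level of 2503 to 3370 FPKM in OPM2. These are bulk samples, in which fewer cells of a type and less RNA per cell cannot be told apart. OPM2 had 2 libraries that stood apart. The measure was the SD, over all genes tested, of a library's log2 deviation from the mean of its group's other libraries. It was 0.53 in the third KO2 library and 0.27 in the third KO1EV library, against 0.10 to 0.28 in the others. The other 2 KO2 libraries gave the 0.28, and the mean they deviate from includes the third. Values without these libraries are given beside the members' results that use them.

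The start-site windows of the 3 switching genes are shown because ANO1 and TSPO were lower in KO1R than in KO1EV while KCNN3 was higher. ANO1 and TSPO parted in KO2, where ANO1 lay above WT and TSPO below it. Each window runs from 250 bases before to 50 bases after a RefSeq start on GRCh38.p14, 5′ to 3′ on the gene's strand, and capitals mark CpG dinucleotides. The ANO1 window is chr11:69985657-69985956 on the plus strand, the TSPO window is chr22:43151309-43151608 on the plus strand, and the KCNN3 window is chr1:154870232-154870531 on the minus strand.
ANO1: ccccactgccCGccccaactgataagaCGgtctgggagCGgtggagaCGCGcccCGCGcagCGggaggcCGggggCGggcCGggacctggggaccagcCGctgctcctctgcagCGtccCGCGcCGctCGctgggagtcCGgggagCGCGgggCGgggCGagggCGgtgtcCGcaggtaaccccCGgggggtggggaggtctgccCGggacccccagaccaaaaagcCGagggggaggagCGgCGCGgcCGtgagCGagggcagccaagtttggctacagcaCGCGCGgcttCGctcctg
TSPO: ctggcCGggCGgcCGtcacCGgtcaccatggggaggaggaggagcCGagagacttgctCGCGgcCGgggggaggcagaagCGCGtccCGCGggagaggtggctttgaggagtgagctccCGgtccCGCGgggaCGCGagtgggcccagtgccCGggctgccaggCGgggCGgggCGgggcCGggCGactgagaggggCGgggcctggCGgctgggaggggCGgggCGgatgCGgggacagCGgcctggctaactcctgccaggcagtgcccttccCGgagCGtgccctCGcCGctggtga
KCNN3: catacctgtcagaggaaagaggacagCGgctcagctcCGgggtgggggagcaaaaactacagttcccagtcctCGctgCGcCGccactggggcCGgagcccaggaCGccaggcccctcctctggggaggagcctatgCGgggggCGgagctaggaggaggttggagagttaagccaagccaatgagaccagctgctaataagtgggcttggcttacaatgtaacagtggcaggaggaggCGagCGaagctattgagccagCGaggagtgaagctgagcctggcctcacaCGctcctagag
The ANO1 window held 36 CpG, the TSPO window 33 and the KCNN3 window 13, against a median of 14 over 35116 such windows. Windows with at least as many CpG made up 12.7% of all windows for ANO1, 17.2% for TSPO and 51.7% for KCNN3. The forkhead letters TAAACA (either strand), held by 12.3% of all windows, were in none of these 3. Over all RefSeq starts of these genes, 1 for ANO1, 3 for KCNN3 and 3 for TSPO, they were found once, in the KCNN3 window of chr1:154868021-154868320. The letters TTTGAA and TTTAAA of the cell cycle homology region, in 15.2% and 12.2% of all windows on either strand, were in none of the 7. Of the windows not shown, those of TSPO held 27 CpG each and those of KCNN3 held 11 and 2. Among the relatives, the VDAC1 windows held 18, 31, 45 and 42 CpG and the VDAC2 windows 16 and 29. The ANO6 window held 2 CpG, with TAAACA and TTTAAA, and the KCNN4 window 6, while VDAC3 had no window. High CpG counts thus also occurred in relatives, and the part of CpG or of these letters in the changes was not tested. The files hold no measure of binding or methylation at these windows.

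ANO1 was close to silent in unedited OPM2 and was a moderately expressed gene in the KO1 clone. Its FPKM was 0.11, 0.05 and 0.06 in the WT libraries and 9.96, 9.67 and 8.98 in the KO1 libraries. With the empty vector it was 7.43, 7.40 and 7.47, and with the FOXM1c vector 0.88, 1.12 and 1.11. In the KO2 clone it was 0.25, 0.54 and 0.77. The order was thus KO1, KO1EV, KO1R, KO2 and WT, and no group overlapped its neighbour in that order. On the log2(FPKM + 1) scale, which understates the change of a gene near 0, KO1 was 3.29 ± 0.10 (SE of the fit) above WT and KO1R was 2.05 below KO1EV (−2.05 ± 0.10). The FOXM1c vector cells still had a mean of 1.04 ± 0.14 FPKM (SD, n = 3), 14.1 times that of WT. The KO2 clone, whose FOXM1 transcript was the lowest of the OPM2 groups, had 0.520 ± 0.261 FPKM, and its highest value came from the third library, without which the log2 difference from WT was 0.37 in place of 0.49.

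TSPO was likewise high in KO1 and KO1EV and lower in WT and KO1R, from a higher start. The WT libraries gave 1.70, 2.52 and 3.34 FPKM, the KO1 libraries 12.52, 14.54 and 13.34, and the KO1R libraries 3.46, 3.78 and 2.91. The KO1EV libraries gave 19.44, 22.16 and 11.57, where the last is the library that stands apart. KO1 was 5.34 times WT in the mean (2.06 ± 0.24 on the log2 scale), and KO1R was below KO1EV (−2.05 ± 0.24, and −2.32 without the third KO1EV library). The KO1R and WT libraries overlapped, as did KO1EV and KO1. Without the third KO1EV library, both remaining KO1EV values lay above every KO1 value, and the log2 difference was 0.59 in place of 0.33.

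The KO2 clone went the other way for TSPO. Its libraries gave 0.99, 1.14 and 0.27 FPKM, all below WT, with a log2 difference from WT of −0.98 ± 0.24 with the third library and −0.74 without it. KO1 and KO2 thus lay on opposite sides of WT, and KO1 had 16.8 times the mean of KO2. Both differences use the same WT libraries. Myeloid cells express TSPO strongly. The summed level of the 5 myeloid markers in the table, of 6 on the list, was 1.14 to 1.71 FPKM in WT, 1.67 to 2.04 in KO1, 0.92 to 1.29 in KO1EV, 1.01 to 1.63 in KO1R and 0.93 to 1.35 in KO2. CD68 (0.28 to 1.20 FPKM) and LYZ (0.20 to 1.02) made up most of it, and CD14, CSF1R and FCGR3A were at 0.12 or less. The part of this sum in the TSPO values was not tested. The summed plasma cell markers were 3214 to 3272 FPKM in WT, 2599 to 2844 in KO1, 2509 to 3094 in KO1EV, 3171 to 3251 in KO1R and 2503 to 3370 in KO2. Every KO1 and KO1EV library, where ANO1 and TSPO were high, lay below WT. In KO2, where both genes were low, the sums ran from below KO1 to above WT. The part of these sums in the ANO1 and TSPO values was not tested.

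KCNN3 differed from ANO1 and TSPO in the vector cells. Its FPKM was 0.97, 0.90 and 0.81 in WT and 3.72, 4.50 and 4.06 in KO1. The empty vector group gave 7.05, 6.78 and 3.40, and the FOXM1c group 15.45, 16.14 and 18.68, the highest of all OPM2 groups. KCNN3 was therefore higher in KO1 than in WT (1.43 ± 0.18, log2). It was higher again in KO1R than in KO1EV (1.44 ± 0.18, and 1.16 without the third KO1EV library), and so lay further from WT. The part of FOXM1c in this was not tested. The KO1R mean was 18.8 times the WT mean. KO2 libraries gave 0.52, 0.54 and 0.25 FPKM, all below WT (−0.40 ± 0.18, log2, and −0.31 without the third library). In the order KO1R, KO1EV, KO1, WT and KO2, the overlapping neighbours were KO1EV and KO1. They did not overlap without the third KO1EV library, where the log2 difference was 0.64 in place of 0.36.

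**Figure D1:**
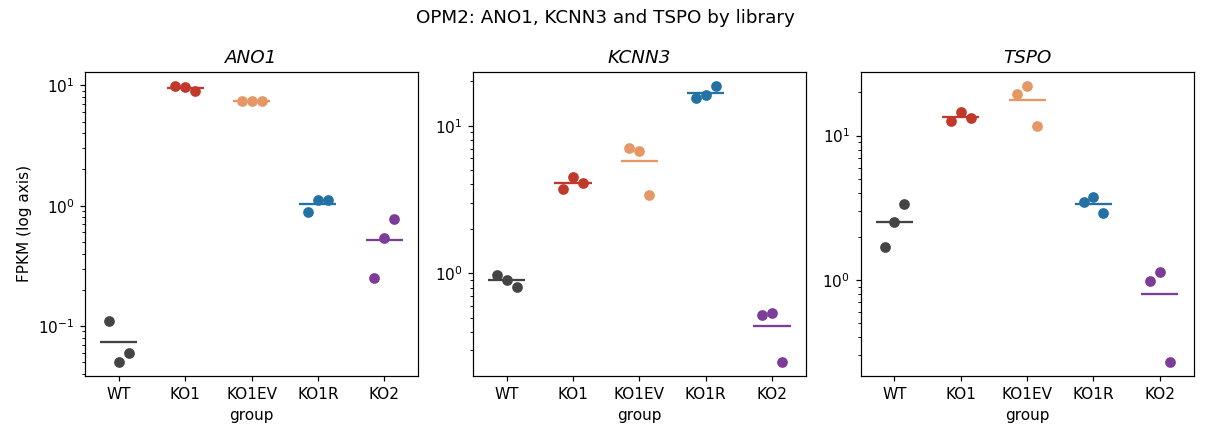
FPKM of ANO1, KCNN3 and TSPO (log axis) in each of the 15 OPM2 libraries, by group; points are libraries and bars are group means. ANO1 and TSPO are high in KO1 and KO1EV and lower in KO1R, KCNN3 is highest in KO1R (15.45 to 18.68), and none of the 3 is high in KO2.

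Over the 15 OPM2 libraries, log2(FPKM + 1) of ANO1 and TSPO had a Pearson r of 0.893. KCNN3 had an r of 0.496 with TSPO and 0.394 with ANO1. These correlations describe libraries that fall into 5 groups and share 1 clone in 3 of them. Among the 455 tested genes whose group means spanned at least 1 on the log2 scale, those most like ANO1 were HYAL3 (r = 0.950), MYO18A (0.942) and USP43 (0.939). MYO18A, for instance, had a mean of 2.01 FPKM in WT, 8.36 in KO1, 4.77 in KO1EV, 3.10 in KO1R and 2.43 in KO2. Most like TSPO were TNFAIP3 (r = 0.964), PRDX2 (0.947) and TNFRSF14 (0.932). TNFAIP3 encodes an inhibitor of NF-kB signalling and PRDX2 a peroxiredoxin that removes peroxide. PRDX2 went from 124 FPKM in WT to 240 in KO1, 219 in KO1EV, 115 in KO1R and 70.4 in KO2. Most like KCNN3 were ICAM3 (r = 0.985), an adhesion molecule of leukocytes, GAS7 (0.960) and F2RL3 (0.954), a protease-activated receptor. GAS7 had a mean of 0.730 FPKM in WT, 9.34 in KO1, 9.52 in KO1EV, 25.6 in KO1R and 1.67 in KO2, so its highest group was also KO1R.

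In OPM2 KO1 against WT, 1 gene rose and 2 fell beside ANO1, 1 rose beside KCNN3, and 1 rose and 2 fell beside TSPO. Of the 5 genes on each side of ANO1 in the RefSeq order, 6 were tested, and in KO1 against WT their log2 differences ran from −0.50 to 0.28. PPFIA1 rose, and CTTN (−0.50, limma adjusted p = 0.00281) and SHANK2 (−0.47, adjusted p = 0.000753) fell, a share of 3 in 6 beside 21.2% of all genes tested in that comparison. Both also fell in KO1R against KO1EV, SHANK2 from a mean of 2.01 to 0.390 FPKM (−1.11, adjusted p = 6.85e-07) and CTTN by −0.50 (adjusted p = 0.00557). These were 2 of the 6, beside 8.23% of all genes tested. CTTN encodes cortactin, an actin-binding protein, and SHANK2 a scaffold protein. Around KCNN3, 7 neighbours were tested, with log2 differences of −0.23 to 0.27 in KO1 against WT, where UBE2Q1 rose. None of the 7 rose in KO1R against KO1EV, and PMVK, of the mevalonate pathway, fell (−0.59, adjusted p = 0.00194). Around TSPO, 6 were tested, from −0.98 to 0.66 in KO1 against WT. ARFGAP3 (−0.98, adjusted p = 0.022) and MCAT (−0.43, adjusted p = 0.0192) fell. The cell death gene BIK, which had 0.880 FPKM in WT and 1.96 in KO1, was the 1 counted as higher. In KO1R against KO1EV all 6 neighbours of TSPO lay lower, from −0.46 to −0.07, and PACSIN2 fell (−0.46, adjusted p = 0.00214), beside 8.23% of all genes. Without the 2 libraries that stand apart, 5 of the 6 fell there (median −0.33), beside 26.4% of all genes. In KO1 against WT without those libraries, 2 rose and 2 fell around ANO1, 3 rose and 1 fell around KCNN3, and 1 rose and 3 fell around TSPO, where the called share of all genes was 58.9%. In KO2 against WT, 2 of 6 rose and 1 fell around ANO1 (SHANK2, −0.94, limma adjusted p = 1.9e-06). None of 7 was called around KCNN3 and 1 of 6 rose around TSPO, beside 14.4% of all genes. Without those libraries, 4 rose and 1 fell around ANO1 and 2 rose and 1 fell around KCNN3. Around TSPO 4 then rose and none fell, beside 41.1% of all genes.

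**Figure D2:**
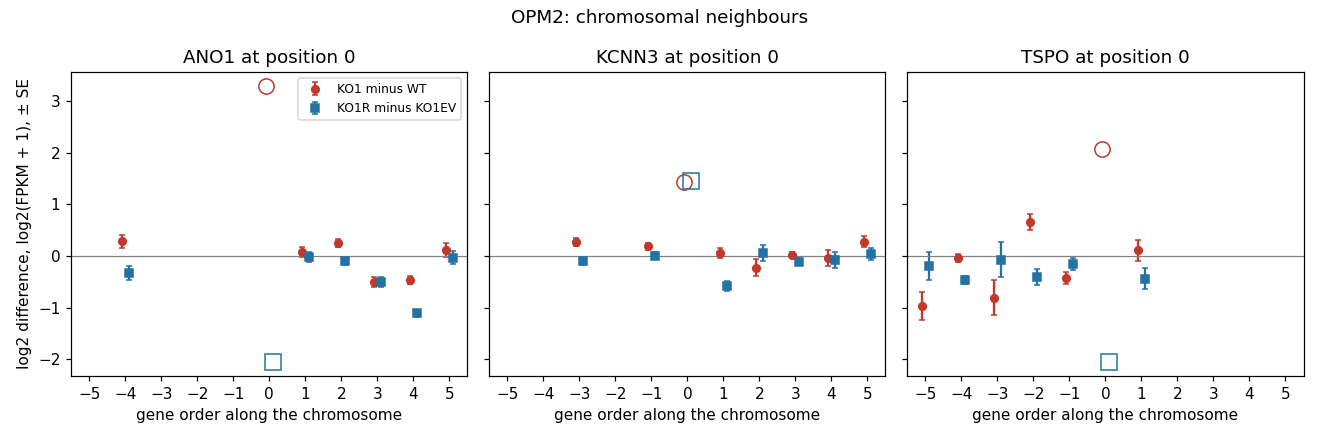
Log2 differences (± SE of the fit) of the tested genes on either side of ANO1, KCNN3 and TSPO in OPM2, by gene order along the chromosome; circles are KO1 minus WT, squares are KO1R minus KO1EV, and large open symbols are the gene itself, with no error drawn. The neighbours lie between −1.11 and 0.66. The 3 named genes were chosen for these comparisons, so their distance from the neighbours is a description.

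The expressed relatives moved little beside these changes, for which the 3 switching genes were chosen, so the contrast is a description. In KO1 against WT, 1 of the 4 relatives tested was called, beside 21.2% of all genes tested. VDAC3 rose from 129.31, 122.20 and 122.22 FPKM in WT to 165.09, 154.82 and 161.88 in KO1, a log2 difference of 0.36 ± 0.11 (limma adjusted p = 0.0358, higher in 3 of 3 libraries than in any WT library). The call was lost when any of these 6 libraries was left out (adjusted p = 0.0691 to 0.102). Without the 2 libraries that stand apart it was kept (adjusted p = 1.09e-06), and over all alternatives its adjusted p ran from 1.09e-06 to 0.102.

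VDAC1 was 130.44, 126.83 and 127.76 FPKM in WT and 159.42, 151.08 and 150.49 in KO1. These groups did not overlap, but the difference of 0.26 ± 0.09 did not pass the test (adjusted p = 0.0631). ANO6 was 45.44, 43.85 and 41.59 FPKM in WT and 38.37, 36.03 and 35.10 in KO1, again without overlap and not called (−0.25 ± 0.12, adjusted p = 0.151). Without the 2 libraries that stand apart, both were called with the same differences, VDAC1 at an adjusted p of 1.01e-05 (1.01e-05 to 0.16 over all alternatives) and ANO6 at 0.000287 (0.000287 to 0.304). VDAC2 was 161 to 167 FPKM in WT and 160 to 161 in KO1 and was not called in either fit. Thus 3 of 4 relatives were called without those libraries, beside 58.9% of all genes.

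The KO2 libraries split for every relative. VDAC3 was 111.56 and 112.38 FPKM in the first and second KO2 libraries, below every WT library, and 162.66 in the third. With all 3, the difference from WT was 0.03 ± 0.11 (limma adjusted p = 0.905). Without the third library it was −0.15 (adjusted p = 0.0399), and without both libraries that stand apart it was −0.15 (adjusted p = 0.00885), so the direction turned. VDAC1 was 122.42, 125.02 and 165.80 FPKM, VDAC2 158.34, 162.97 and 187.27, and ANO6 40.01, 41.05 and 27.09. In KO2 against WT none of the 4 relatives was called by limma with all libraries, 1 of them (ANO6) had an unadjusted p under 0.05, and 14.4% of all genes were called. Against KO1, VDAC3 was lower in KO2 (−0.34 ± 0.11, adjusted p = 0.037), 1 of 4 beside 29.9% of all genes, though the groups overlapped through the third library. Without that library the difference was −0.52 (adjusted p = 1.42e-06), and without 1 of the other libraries of these groups the adjusted p was 0.0687 to 0.161.

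In the vector cells the VDAC genes and ANO6 moved less than the switching genes, which were chosen for their changes in these groups. VDAC3 was 136.15, 142.32 and 150.63 FPKM in KO1EV and 131.24, 125.84 and 126.71 in KO1R. VDAC1 was 152.29, 148.79 and 161.57 FPKM in KO1EV and 140.34, 139.58 and 140.54 in KO1R. In both genes every KO1R library lay below every KO1EV library, but neither difference passed the test (VDAC3 −0.16, adjusted p = 0.408, and VDAC1 −0.14, adjusted p = 0.387). None of the 4 relatives was called by limma in KO1R against KO1EV, nor had an unadjusted p under 0.05, beside 8.23% of all genes. None was called in KO1EV against KO1, beside 4.95%, where VDAC2 had an unadjusted p under 0.05. None was called in KO1R against KO1, beside 21.7%, where VDAC3 (−0.33, adjusted p = 0.0546) had an unadjusted p under 0.05 and was called with the replicate number as a block (adjusted p = 0.0459) and with the trend on transcript length removed (−0.42, adjusted p = 0.0169, in a range of 4.52e-06 to 0.143). Across genes, the Spearman rho of the log2 difference with transcript length was −0.252 there and −0.321 in KO1EV against KO1. Without the libraries that stand apart, the relatives called numbered 1 (VDAC3) in KO1R against KO1EV, 2 (VDAC2 and VDAC3) in KO1EV against KO1 and 3 (ANO6, VDAC1 and VDAC3) in KO1R against KO1, with 26.4%, 32.1% and 54.2% of all genes.

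KCNN4 was not an expressed relative in these cells. It was at 0 to 0.13 FPKM in the 15 OPM2 libraries and at 0.03 to 0.35 in the 12 Delta47 libraries, below the filter in both, so no difference was tested and the depth to read one is unknown.

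**Figure D3:**
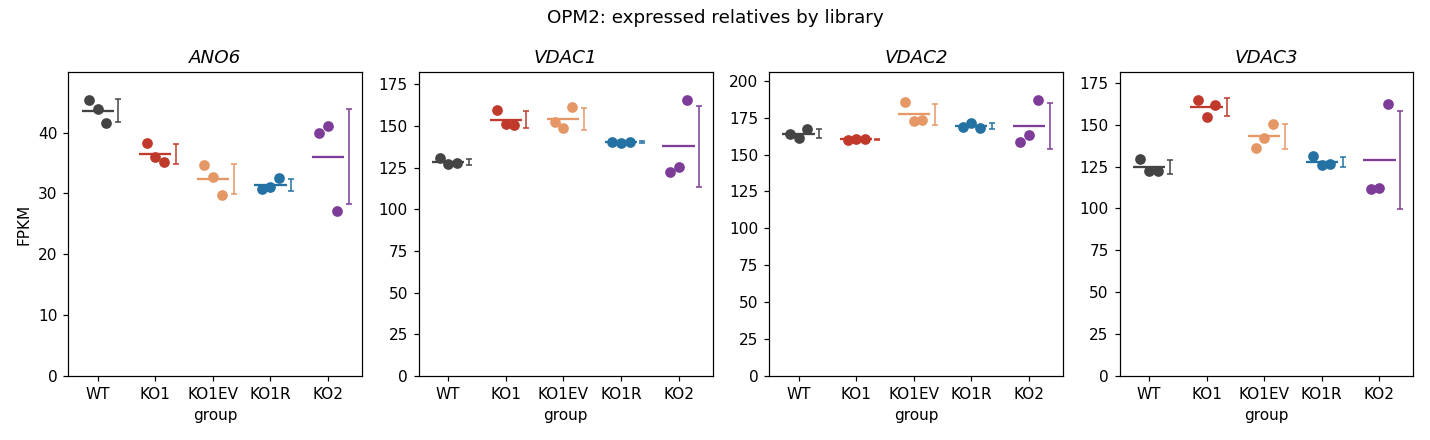
FPKM of ANO6, VDAC1, VDAC2 and VDAC3 in each of the 15 OPM2 libraries, by group (axes start at 0); points are libraries, bars are means and the brackets are SD. The third KO2 library lies apart from the other 2 in each gene, for VDAC3 at 162.66 against 111.56 and 112.38.

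The wider families of these genes were mostly silent or little changed in OPM2. Of 9 other anoctamins and scramblases in the table, 4 passed the filter, and in KO1 against WT 1 rose, none fell, and the median log2 difference was −0.01 beside 0.07 over all genes tested, of which 21.2% were called. ANO4 rose from a mean of 1.56 to 2.49 FPKM (0.45, limma adjusted p = 0.00901) and fell in KO1EV against KO1 (−0.49, adjusted p = 0.0132). ANO3 and ANO7 were at 0.07 FPKM or less. Of the other calcium-activated potassium channels, KCNN1 and KCNMA1 were at 0.08 FPKM or less and KCNN2 at 0.75 or less. Without the libraries that stand apart, 2 anoctamins or scramblases rose and 1 fell.

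Of 15 tested store-operated and endoplasmic reticulum calcium genes, 2 rose and 2 fell in KO1 against WT, with a median of 0.11, beside 21.2% of all genes called. ATP2A3, a calcium pump of the reticulum, rose from 12.4 to 21.1 FPKM (0.72, adjusted p = 0.0142) and ATP2B4, a calcium pump of the plasma membrane, from 1.22 to 2.29 (0.57, adjusted p = 0.00111). STIM1, the sensor of calcium in the reticulum, fell from 73.6 to 53.7 FPKM (−0.45, adjusted p = 0.00123). Of 16 tested volume-regulated and other chloride channel genes, 4 rose and none fell, with a median of 0.07, a share near that of all genes. CLCN2 rose from 1.97 to 3.76 FPKM (0.68, adjusted p = 0.00658), LRRC8C, a subunit of the volume-regulated anion channel, from 1.48 to 2.68 (0.57, adjusted p = 0.0154), and TMEM206, a proton-activated chloride channel, from 6.64 to 8.64 (0.33, adjusted p = 0.00353). In KO1R against KO1EV, 1 gene of the chloride list was called (TMEM206, −0.23, adjusted p = 0.0489). None of the calcium list was called by limma there, and 2 had an unadjusted p under 0.05. Without the libraries that stand apart, the counts in KO1 against WT were 7 higher and 3 lower of the calcium genes and 5 higher and 3 lower of the chloride genes, beside 58.9% of all genes called.

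Of 9 tested genes of TSPO partners and mitochondrial cholesterol import, none rose and 1 fell in KO1 against WT, beside 21.2% of all genes called, and the median was 0.08 beside 0.07 over all genes. That gene was ACBD3, a Golgi protein known to bind TSPO (−0.34, adjusted p = 0.0289). In KO2 against WT, 2 of the 9 fell, beside 14.4% of all genes: FDX1, the ferredoxin of mitochondrial steroid synthesis, from 15.8 to 9.92 FPKM (−0.63, adjusted p = 0.000274), and DBI, a ligand of TSPO (−0.34, adjusted p = 0.0242). Without the libraries that stand apart these were −0.74 and −0.34. STAR and CYP11A1, which deliver and cleave cholesterol in steroid-producing cells, were at 0.09 FPKM or less in OPM2, and TSPO2 at 0.08 or less. Of 18 tested VDAC partners of the mitochondrial membrane, none rose and 4 fell in KO1 against WT, with a median of −0.07, beside 21.2% of all genes called. HK2, the hexokinase that docks on VDAC1, fell from a mean of 35.7 FPKM in WT to 18.2 in KO1 (−0.94, adjusted p = 3.17e-05). The KO2 mean was 19.0 FPKM, also lower than WT (−0.88, adjusted p = 6.57e-05, and −0.997 without the libraries that stand apart). It was higher in KO1R than in KO1EV, 33.4 against 16.3 FPKM (1.00, adjusted p = 4.11e-05, and 1.11 without them). SAMM50, which inserts pore proteins into the outer membrane, fell in KO1 (−0.46, adjusted p = 0.00236) and rose in KO2 (0.49, adjusted p = 0.0017, and 0.37 without them). Without the libraries that stand apart, 2 TSPO partners rose and 1 fell, and 5 VDAC partners rose and 6 fell, in KO1 against WT, beside 58.9% of all genes.

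In Delta47 the members tested moved by small steps. KCNN3 was near silent there, at 0.12, 0.16 and 0.11 in WT, 0.04, 0.04 and 0.07 in KO1, 0.05, 0.07 and 0.05 in KO2 and 0.05, 0.03 and 0.03 in KO2R. WT thus lay above the knockout and vector libraries, at values below the filter that were not tested. The genes beside KCNN3 were lower too: 7 of 7 neighbours tested fell in KO1 (−0.88 to −0.23, median −0.51) and 7 of 7 in KO2 (−0.80 to −0.29, median −0.61) against WT. All genes tested had a median of 0.02 and 0.05, and 52.6% and 43.6% of them were called. With the transcript-length trend removed, 7 of 7 fell in each clone. Of the 7 tested in OPM2, 1 rose in KO1 against WT and none fell, and the difference between the lines was not tested. TSPO was well expressed, and ANO6, VDAC1, VDAC2 and VDAC3 completed the 5 genes tested. The Delta47 unit is not named, so levels are compared only within a gene.

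A trend with transcript length ran through 3 of the 4 Delta47 comparisons and bears on these small steps. Across genes, the Spearman rho of the log2 difference with the longest coding transcript was −0.394 in KO1 against WT, −0.069 in KO2 against WT, 0.434 in KO2 against KO1 and −0.506 in KO2R against KO2. TSPO, at 1075 bases, is the shortest of the 8 genes, followed by VDAC3 at 1355, VDAC2 at 1557 and VDAC1 at 1953, and ANO6 is long at 5975. Differences with that trend removed are therefore given beside the main ones. They were computed after the data were seen.

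TSPO rose in both Delta47 knockout clones. It was 99.98, 107.67 and 113.46 in WT, 127.31, 134.85 and 127.68 in KO1, and 124.19, 127.15 and 136.18 in KO2. Every knockout library lay above every WT library. In KO1 the log2 difference was 0.28 ± 0.05 (limma adjusted p = 0.00025). The second clone gave 0.27 ± 0.05 (adjusted p = 0.000433). With the length trend removed it was 0.11 in KO1 (adjusted p = 0.0142, the highest of the alternatives, whose lowest was 0.000141) and 0.27 in KO2 (adjusted p = 1.58e-05, with 0.00506 the highest). The clones then differed, KO2 above KO1 by 0.15 (adjusted p = 0.00331, in a range up to 0.987), where the values as deposited gave −0.01 (adjusted p = 0.905). The rise of 1.21 times in each clone compares with 5.34 times in OPM2 KO1 and with a level of 0.317 times WT in OPM2 KO2.

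The FOXM1c vector group of Delta47 had the highest TSPO values. Its libraries gave 171.86, 159.81 and 153.25, all above KO2, with a difference of 0.32 ± 0.05 (adjusted p = 4.36e-05). OPM2 KO1R lay below KO1EV for this gene. With the length trend removed the Delta47 difference was −0.00 (adjusted p = 0.933, in a range from 2.45e-05), and the call was lost.

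VDAC3 was 97.18 to 97.71 in WT and rose to 108.38, 113.96 and 114.99 in KO1 (0.20 ± 0.04, adjusted p = 0.00032). In KO2 it was 99.73, 104.03 and 106.11, above WT in 3 of 3 libraries and not called (0.08, adjusted p = 0.091). In KO2R it reached 126.17, 136.43 and 136.74 (0.36 ± 0.04 over KO2, adjusted p = 6.07e-07). With the length trend removed the KO1 difference was 0.07 (adjusted p = 0.19, in a range from 0.000251) and that of KO2R was 0.11 (adjusted p = 0.0237, in a range from 3.14e-07). The difference between the clones, KO2 against KO1, was −0.12 (adjusted p = 0.0184) and 0.01 with the trend removed (adjusted p = 0.894, in a range from 0.0129).

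VDAC1 went against VDAC3. It was 191.56 to 200.61 in WT and 175.48 to 183.60 in KO1 (−0.12 ± 0.04, adjusted p = 0.0164), while KO2 at 199.76 to 203.66 overlapped WT. KO2 was thus above KO1 (0.16 ± 0.04, adjusted p = 0.00315), and KO2R fell to 163.54 to 183.85 (−0.22 ± 0.04, adjusted p = 0.00015). With the length trend removed these 3 differences kept their direction and were larger, at −0.21, 0.24 and −0.34. OPM2 KO1 lay above its WT for this gene, so KO1 of the 2 lines lay on opposite sides.

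ANO6 fell in both clones, from 12.86 to 14.14 in WT to 12.17 to 12.71 in KO1 (−0.13 ± 0.05, adjusted p = 0.0406) and 11.78 to 12.62 in KO2 (−0.15 ± 0.05, adjusted p = 0.0211). It fell again in KO2R, to 10.55 to 10.95 (−0.16 ± 0.05, adjusted p = 0.00783). With the length trend removed it was −0.02 in KO1 (adjusted p = 0.739, in a range from 0.0159) and −0.01 in KO2R (adjusted p = 0.871, in a range from 0.00642), while KO2 kept −0.13 (adjusted p = 0.022, in a range of 0.00137 to 0.0956). With the replicate number as a block, the KO1 call was lost (adjusted p = 0.0593). VDAC2 was 224.98 to 242.65 in WT, overlapped in both clones and was called in no Delta47 comparison as deposited. It was called in KO2 against KO1 with that trend removed (0.10, adjusted p = 0.0392, in a range up to 0.997). In KO2R against KO2 it had 0.08 (adjusted p = 0.0866), which became a call with the replicate block (adjusted p = 0.0476) and turned to −0.12 with the length trend removed (adjusted p = 0.0133).

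By count, 4 of the 5 members tested in Delta47 were called in KO1 against WT beside 52.6% of all genes tested, 2 of 5 in KO2 against WT beside 43.6%, 2 of 5 in KO2 against KO1 beside 42.1%, and 4 of 5 in KO2R against KO2 beside 62%. After removal of the length trend the counts were 2, 2, 3 and 3 of 5, beside 48.4%, 46.2%, 37.4% and 58.5% of all genes. With so few members, these shares are not read as apart from the background. The KO1 and KO2 differences share the WT libraries. Among the markers of other cell types, the stromal and endothelial sum was 1.62 to 1.73 in WT, 3.19 to 3.53 in KO1, 14.4 to 16.2 in KO2 and 13.6 to 15.2 in KO2R. PECAM1, which plasma cells also express, made up most of it, with up to 15.58, while VWF, COL1A1, COL1A2 and PDGFRB were at 0.38 or less. Epithelial markers summed to 5.49 to 6.47 in WT, 7.94 to 8.55 in KO1, 9.59 to 11.2 in KO2 and 12.01 to 12.87 in KO2R, and all 4 in the table, EPCAM, KRT8, KRT18 and CDH1, were above 0. Their part in the member values was not tested. The 4 myeloid markers in the table summed to 0.80 to 1.28 over all groups.

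**Figure D4:**
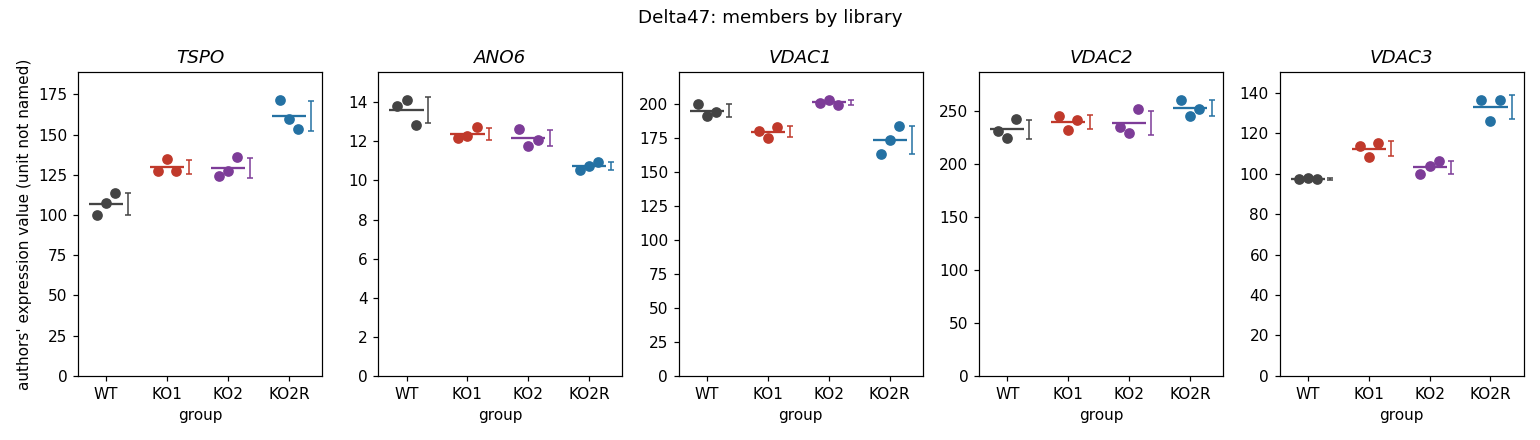
The authors' expression value (unit not named, axes start at 0) of the 5 members tested in the 12 Delta47 libraries, by group; points are libraries, bars are means and brackets are SD. TSPO lies at 99.98 to 113.46 in WT and above that in every knockout and vector library.

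**Figure D5:**
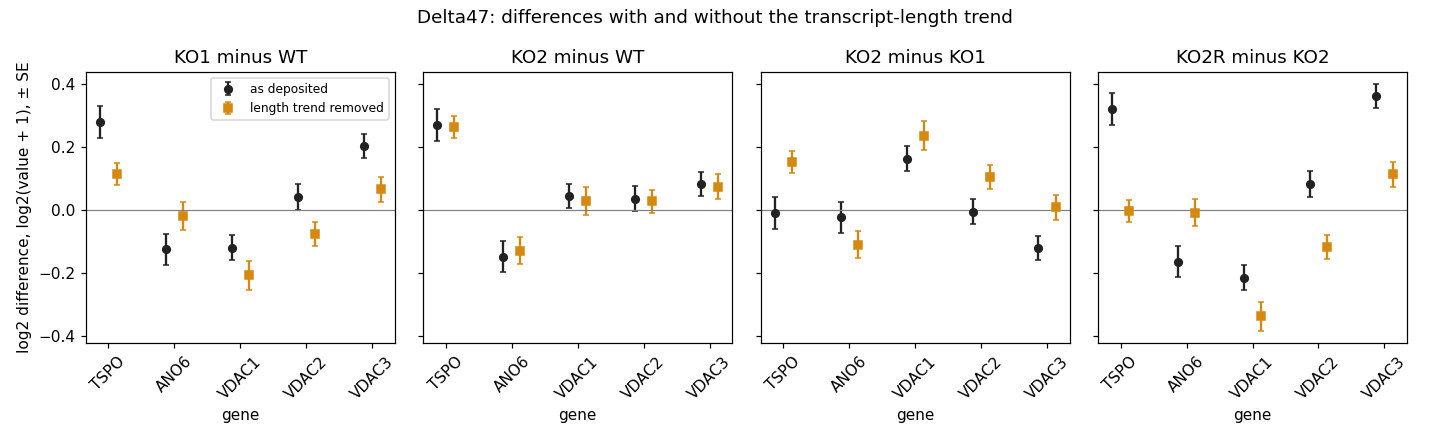
Log2 differences (± SE of the fit) of the 5 members in the 4 Delta47 comparisons, as deposited (circles) and with the transcript-length trend removed (squares). TSPO in KO2R minus KO2 moves from 0.32 to about 0, and TSPO in KO2 minus WT stays at 0.27.

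Among the genes of the Delta47 pathway lists, KCNMA1 was at 0.97 to 1.45 and KCNN2 at 0.61 to 1.86, and both passed the filter. In OPM2 both were below it. The Delta47 unit is not named, so this is no comparison of level between the lines. The background for the next counts was 52.6% of all genes (KO1 against WT) or 62% (KO2R against KO2), and 48.4% or 58.5% with the length trend removed. Of 18 calcium genes, 8 rose and 5 fell in KO1 (7 and 4 with the length trend removed), and 2 rose and 12 fell in KO2R against KO2 (2 and 10), where the median was −0.37 beside −0.05 over all genes. TMCO1, a calcium leak channel of the reticulum, fell from 70.9 in WT to 40.2 in KO1 and 35.4 in KO2 (−0.80 and −0.98, adjusted p = 1.66e-11 and 1.01e-12). Of 17 chloride channel genes, 5 rose and 3 fell in KO1 (8 and 1 with the trend removed). Of 11 TSPO partners, 4 rose and 4 fell in KO1, the same counts with the trend removed, and ATAD3A, a mitochondrial membrane ATPase, rose from 212 to 276 (0.38, adjusted p = 3.09e-08). Of 19 VDAC partners, 8 rose and 2 fell in KO1 (4 and 3 with the trend removed). HK2 was lower than WT in KO1 (−1.22 ± 0.24, limma adjusted p = 0.000444) and in KO2 (−0.86 ± 0.24, adjusted p = 0.00757). In KO2R against KO2 the HK2 difference was not called (0.49 ± 0.24, adjusted p = 0.0845). HK1, a hexokinase that binds VDAC1, had a mean of 0.440 in WT and 0.597 in KO1. It had 2.27 in KO2 and 1.88 in the vector group, and passed the filter only through the groups in which it was high.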

How the data were processed

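RNA sequencing of poly-A RNA (paired reads of 100 bases on a DNBseq instrument, per the labels' protocols) gave 1 table per line. The OPM2 values are FPKM deposited by the authors, per the file headers. The Delta47 values are a signal of expression deposited by the authors under headers that name no unit. The sources used here do not give the aligner or the counter. Of 30 samples, 27 were mapped to columns, and 3 columns of per-sample values were not used. Symbols that had turned into dates (23 in OPM2, 24 in Delta47) were renamed by gene ID.

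Values were put on the log2(value + 1) scale and tested with limma 3.58.1 in R 4.3.3 (mean-variance trend, all groups of a line in 1 fit, two-sided), with Benjamini-Hochberg adjustment over the 10309 OPM2 or 11001 Delta47 genes that reached 1 in at least 3 libraries. Calls were made below an adjusted p of 0.05. The script was tested on simulated data. The labels do not say that the 3 libraries of a group are separate cultures, so p-values measure the spread between these libraries, which may be technical.

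Samples with the same replicate number deviated together in OPM2 KO1 and WT (correlations of 0.412, 0.152 and 0.209), the 1 comparison in which each was over 0.1. The pairing comes from the data, and the replicate block changed no member's call there. The length trend was a lowess curve of each library's deviation on the longest transcript.

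The members and the gene lists were chosen with earlier results of these data known. Genes named were the members, at most 4 genes of each list by smallest adjusted p with those left silent, the 5 genes on each side of the 3 switching genes and the 3 genes most like each of them. Alternatives were other pseudocounts and filters, quantile scaling, smaller fits, the block and leaving out libraries. The list of calcium-activated potassium channels and calcium sensors is described only by named channels, and its counts are not reported here.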

Additional observations from a re-analysis of the deposited data

Results flagged for a closer look

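The knockout clones of 1 line differed in 3 tests of the members. In OPM2, VDAC3 was lower in KO2 than in KO1 by limma (−0.34 on the log2 scale), though the third KO2 library lay with KO1. In Delta47, VDAC1 was higher in KO2 than in KO1 (0.16) and VDAC3 lower (−0.12), and the VDAC3 difference was 0.01 with the length trend removed.

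In 4 patterns every library of 1 group moved one way and every library of another the opposite way, and these differences were not tested. With the FOXM1c vector, TSPO was lower in OPM2 (−2.05, against the empty vector) and higher in Delta47 (0.32, against KO2 itself), where the length trend removed left −0.00. VDAC3 was likewise lower in OPM2 (−0.16, not called) and higher in Delta47 (0.36, and 0.11 with the length trend removed). TSPO was below WT in OPM2 KO2 (−0.98) and above WT in Delta47 KO1 (0.28) and KO2 (0.27). VDAC1 was above WT in OPM2 KO1 (0.26, not called) and below WT in Delta47 KO1 (−0.12). The control of the vector comparison differs between the lines, and each knockout group is 1 clone.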

How the results depend on the processing

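Of the members' log2 differences under the alternatives, 767 kept their call or moved within the replicate spread. Another 33 lost a call, 22 gained one, 18 moved further, and 8 reversed with a call in either fit. The 767 include differences that changed direction without a call in either fit, such as VDAC1 in OPM2 KO2 against WT (−0.05 to 0.16). Counts of members called are given next, and the cause of each change was not tested.

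In OPM2 KO1 against WT, 1 was called, 2 with quantile scaling, 3 with only the groups compared, 3 without KO2 replicate 3 and KO1EV replicate 3, and 0 leaving out any 1 of the 6 libraries compared. In KO2 against WT, 0 were called, 1 without those 2 libraries, and 0 to 1 leaving out 1. In KO2 against KO1, 1 was called, 0 with no filter, 2 with quantile scaling, 0 with only the groups compared, 3 without the 2 libraries, and 0 to 2 leaving out 1. Without the 2 libraries, 2 were called in KO1EV against KO1 and 1 in KO1R against KO1EV, where the count was 0. In KO1R against KO1, 0 were called, 1 with quantile scaling, 3 with only the groups compared, 1 with the replicate block, 3 without the 2 libraries and 1 with the length trend removed.

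In Delta47 KO1 against WT, 4 were called, 2 to 4 leaving out 1 library (2 without KO1 replicate 2 or WT replicate 1), and 2 with the length trend removed. In KO2 against WT, 2 were called, 4 with no filter, and 1 to 2 leaving out 1. In KO2 against KO1, 2 were called (VDAC1 and VDAC3), 1 with quantile scaling, 3 with the length trend removed (TSPO, VDAC1 and VDAC2), and 1 to 2 leaving out 1. In KO2R against KO2, 4 were called, and 3 to 5 over the alternatives.

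Reversals with a call in either fit were as follows. VDAC3 turned in OPM2 KO2 against WT (−0.15 without KO2 replicate 3, alone or with KO1EV replicate 3, and −0.15 to 0.12 leaving out 1 library). ANO6 turned in OPM2 KO2 against KO1 (0.15 without both, and −0.14 to 0.15 leaving out 1 library). With the length trend removed, TSPO (0.15), VDAC2 (0.10) and VDAC3 (0.0083) turned in Delta47 KO2 against KO1. TSPO (−0.0038) and VDAC2 (−0.12) then turned in KO2R against KO2.

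With the replicate block, VDAC3 in OPM2 KO1R against KO1 was called (−0.33, limma adjusted p = 0.0459), ANO6 in Delta47 KO1 against WT was lost (−0.13, adjusted p = 0.0593) and VDAC2 in Delta47 KO2R against KO2 was called (0.08, adjusted p = 0.0476). The block changed no other member's call. Outside OPM2 KO1 and WT the samples share only a number. With a pseudocount of 0.1, ANO1 in OPM2 KO1 against WT was 5.81 in place of 3.29.

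Genes called in all of OPM2 KO1 against WT numbered 2187, and 1176 to 6052 over the alternatives. The ranges were 390 to 4227 (1480) in KO2 against WT, 1195 to 6951 (3086) in KO2 against KO1, 223 to 3295 (510) in KO1EV against KO1, 416 to 2717 (848) in KO1R against KO1EV and 1219 to 5571 (2236) in KO1R against KO1, each highest without the 2 libraries. Quantile scaling moved OPM2 KO1 against WT from 1494 higher and 693 lower to 1080 and 1143. It moved KO2 against KO1 from 1118 and 1968 to 1575 and 1618, KO1R against KO1 from 645 and 1591 to 929 and 1019, KO1R against KO1EV from 320 and 528 to 426 and 345, and Delta47 KO2 against WT from 3122 and 1669 to 2459 and 2096. The length alternatives and the list counts without the 2 libraries were chosen after seeing the data. Depth is unknown, so values near 0, such as KCNN4, set no limit.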
